A study of Mus musculus with 16 samples.

Results

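Some stretches of open chromatin in mouse bone marrow progenitors are far wider than a single nucleosome-free gap and carry several summits of signal. Here a wide open region is a merged region of at least 1500 bp that was called in 2 or more libraries. There were 727 such regions among 83972 merged regions found in more than 1 library and 102496 merged regions in all. They were chosen by their width and by the number of libraries that called them, so neither is a finding, and width grows with reads. They came from 16 ATAC-seq libraries, an assay in which Tn5 transposase inserts adapters into accessible DNA. The cells were bone marrow of male C57Bl/6 mice, from which cells with Gr1, Ter119, B220, CD4 or CD3 on their surface had been removed, and called haematopoietic stem cells by the submitters. Such a fraction also holds committed progenitors. Cells of 4 mice made diabetic with streptozotocin, a toxin of insulin-producing β cells, and of 4 control mice were each divided. Of each, 1 portion spent 6 h in culture with the inflammatory cytokine interleukin-1β (IL-1β) at 10 ng/mL and the other was lysed at once as the baseline. The 4 groups, of 4 libraries each, were diabetic IL-1β, diabetic baseline, control IL-1β and control baseline. Stimulation and culture always came together, and every difference between IL-1β and baseline is one of IL-1β with culture. The diabetic mice alone received streptozotocin, so the toxin and diabetes cannot be told apart.

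As background, open chromatin at a gene start is usually a nucleosome-free gap where RNA polymerase II and general transcription factors assemble. Enhancers are open stretches farther away, bound by sequence-specific factors. Where several factors bind side by side, or where a pair of genes starts in opposite directions from a shared CpG island, neighbouring gaps can be called as a single broad peak with several summits. IL-1β signals through the kinase IRAK4 and NF-κB in myeloid cells and progenitors, and its targets include genes of inflammation and of granulocyte production.

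The sequences of 7 gene starts in wide open regions are given first because the within-region results below turn on where the summits lie relative to them. Each runs 5′ to 3′ along the gene's strand, from 250 bases before to 50 bases after the start, as RefSeq's promoter table for GRCm38.p6 gives it. Capitals mark matches on either strand to the GC box (GGGCGG), the CCAAT box (CCAAT), ETS (CCGGAAG), the full CRE (TGACGTCA), the NRF1 palindrome, the TATA box (TATAAA), YY1 (ATGGCGG) or AP-1 (TGANTCA). Pcgf5, Suco, Tra2b and Nfya hold summits that changed unlike their neighbours. Ifngr2 and Ptpn22 hold a summit that rose beside the start, and Arid1b is among the regions with the most summits.
Pcgf5: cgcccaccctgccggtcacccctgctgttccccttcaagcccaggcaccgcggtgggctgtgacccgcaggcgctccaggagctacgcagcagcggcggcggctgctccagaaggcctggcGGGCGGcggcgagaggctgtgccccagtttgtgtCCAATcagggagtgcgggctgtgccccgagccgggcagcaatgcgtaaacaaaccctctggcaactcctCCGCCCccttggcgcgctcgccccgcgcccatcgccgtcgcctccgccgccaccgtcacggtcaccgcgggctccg
Suco: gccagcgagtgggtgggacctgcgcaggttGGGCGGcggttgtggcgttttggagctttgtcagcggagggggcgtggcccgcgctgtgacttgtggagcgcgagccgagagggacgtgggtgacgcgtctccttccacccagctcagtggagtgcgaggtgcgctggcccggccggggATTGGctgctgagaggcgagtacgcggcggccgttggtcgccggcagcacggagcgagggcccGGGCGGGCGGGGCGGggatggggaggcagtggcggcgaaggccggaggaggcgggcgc
Tra2b: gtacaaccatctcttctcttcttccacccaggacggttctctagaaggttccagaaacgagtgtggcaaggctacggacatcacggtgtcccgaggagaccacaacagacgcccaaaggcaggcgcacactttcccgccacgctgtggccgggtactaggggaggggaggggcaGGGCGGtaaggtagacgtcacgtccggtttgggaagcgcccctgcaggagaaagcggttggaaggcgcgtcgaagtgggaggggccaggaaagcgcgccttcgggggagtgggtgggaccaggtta
Nfya: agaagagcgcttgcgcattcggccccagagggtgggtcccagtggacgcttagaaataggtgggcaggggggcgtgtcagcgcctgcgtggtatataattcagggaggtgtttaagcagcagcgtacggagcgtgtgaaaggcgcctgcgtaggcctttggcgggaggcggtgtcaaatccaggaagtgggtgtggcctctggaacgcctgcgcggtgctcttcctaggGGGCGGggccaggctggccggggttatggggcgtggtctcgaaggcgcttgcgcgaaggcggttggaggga
Ifngr2: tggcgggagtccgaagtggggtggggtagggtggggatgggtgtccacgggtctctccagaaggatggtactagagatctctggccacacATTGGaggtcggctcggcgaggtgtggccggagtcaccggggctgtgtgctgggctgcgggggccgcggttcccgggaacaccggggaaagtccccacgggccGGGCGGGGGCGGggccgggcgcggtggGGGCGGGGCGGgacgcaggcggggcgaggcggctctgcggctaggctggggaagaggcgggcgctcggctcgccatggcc
Ptpn22: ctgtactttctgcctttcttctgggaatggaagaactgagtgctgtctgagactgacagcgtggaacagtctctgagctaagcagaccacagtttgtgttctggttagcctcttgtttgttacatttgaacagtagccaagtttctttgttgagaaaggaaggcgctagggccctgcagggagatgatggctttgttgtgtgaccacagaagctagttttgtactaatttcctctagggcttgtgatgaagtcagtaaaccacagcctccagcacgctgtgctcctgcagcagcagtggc
Arid1b: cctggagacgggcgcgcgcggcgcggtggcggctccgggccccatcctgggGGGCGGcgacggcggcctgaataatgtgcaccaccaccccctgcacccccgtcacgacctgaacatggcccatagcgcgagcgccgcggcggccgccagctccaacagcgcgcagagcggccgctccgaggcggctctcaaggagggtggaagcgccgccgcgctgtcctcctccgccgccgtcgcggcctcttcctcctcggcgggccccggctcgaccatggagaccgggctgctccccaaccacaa
The Pcgf5 start is on the plus strand at chr19:36348079-36348378, Suco on the minus strand at chr1:161876633-161876932, and Tra2b on the minus strand at chr16:22265956-22266255. Nfya is on the minus strand at chr17:48409771-48410070, Ifngr2 on the plus strand at chr16:91546809-91547108, Ptpn22 on the plus strand at chr3:103860027-103860326, and Arid1b on the plus strand at chr17:4994824-4995123. The window of Suco holds 37 CpG dinucleotides, 4 GC boxes and 1 CCAAT box, and that of Ifngr2 holds 31 CpG, 4 GC boxes and 1 CCAAT box. The Pcgf5 window holds 34 CpG, 2 GC boxes and 1 CCAAT box. Arid1b, Nfya and Tra2b hold 1 GC box each, beside 42, 25 and 22 CpG. The Ptpn22 window stands apart from the other 6 with 3 CpG, 48.7% G and C, and no match to any of the 8 motifs. A match is a run of letters and not a binding site.

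Across all 821 promoter windows of 666 genes that lay inside wide open regions, the median window held 29 CpG and 67.7% G and C. In 10371 windows inside the other regions called in all 16 libraries the medians were 22 CpG and 62.0%, and over all 32851 windows of the table they were 7 CpG and 52.7%. A GC box was present in 75.6% of the windows in wide regions, in 68.1% of those in other shared regions and in 35.7% of all. An ETS match, the core bound by the family of PU.1 and ETS1, was present in 13.2%, 21.3% and 8.86%. A TATA box was present in 4.99%, 5.76% and 13.6%, and a CCAAT box in 35.7%, 39.0% and 37.4%. AP-1 matches, the sites of JUN and FOS proteins, were in 3.53%, 4.45% and 7.81%. YY1 matches were in 11.2%, 9.18% and 4.05%. These shares are descriptions with no test. Every GC box match holds a CpG, so the shares of both are not separate observations, and both move with base composition.

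Most wide open regions lay at genes. A gene end here means either boundary of a gene body, the one at the gene's start included. Of the 727 regions, 503 (69.2%) held the start or end of a protein-coding gene body, against 32.2% of 24236 other regions called in all 16 libraries. Another 46 lay within 1 kb of such an end, 126 (17.3%) lay deeper inside a gene body, against 33.4% of the others, and 52 (7.15%) lay between genes, against 27.9%. An annotated gene start lay in 525 of them (72.2%), against 32.9% of the other shared regions. Starts on both strands lay in 136 (18.7%), against 5.17%. Starts came from the promoter table, which held no gene on the chromosomes of 18 of the 727 regions. These regions, and any others there, count as holding no start. A wide region has more room for a gene end: the median width was 1655 bp in the wide regions, with quartiles of 1571 and 1790 bp, and 679 bp in the others. The comparison was therefore not tested. The wide regions also had more reads. The mean of their highest summit over libraries had a median of 88.6 reads per region, against 38.8 in the others.

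**Figure D1:**
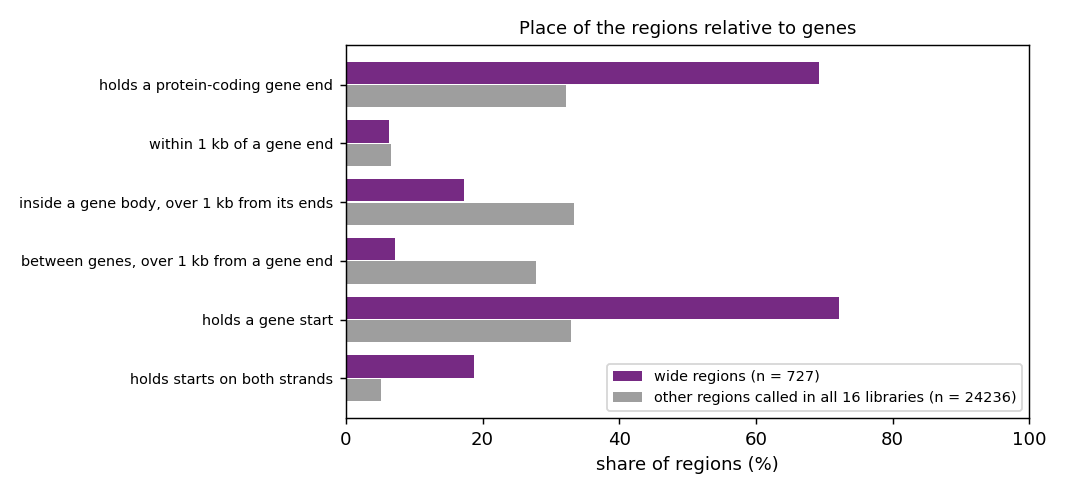
Share of regions, in percent, by their place relative to RefSeq genes, for 727 wide open regions and for 24236 other regions called in all 16 libraries. The upper 4 classes exclude each other and the lower 2 overlap them; 69.2% of the wide regions and 32.2% of the others held a protein-coding gene end.

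Where a region held a single annotated start, its strongest summit usually sat just before that start and further summits lay on either side. In 300 wide regions with 1 start, the strongest position had a median of -50 bp from the start, with quartiles of -137 and 4.25 bp, and 73.7% of them were within 250 bp. Over all 540 positions of these regions 50.0% were within 250 bp, 30.9% lay more than 250 bp inside the gene and 19.1% lay more than 250 bp upstream. In other shared regions with 1 start, 82.9% of 6402 positions were within 250 bp, 11.3% lay farther inside and 5.78% farther upstream.

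**Figure D2:**
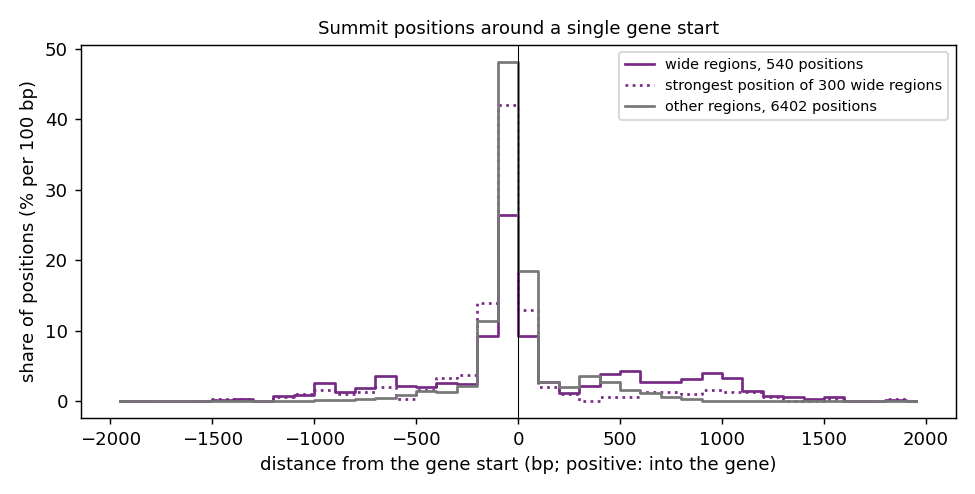
Distance of summit positions from the only annotated gene start of their region, in bp, as the share of positions per 100 bp. The solid violet line shows 540 positions in wide regions, the dotted violet line their strongest positions and the grey line 6402 positions in other shared regions; 30.9% of the violet positions and 11.3% of the grey ones lie more than 250 bp into the gene.

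Each wide region was called in nearly every library: 719 in all 16, 6 in 15 and 2 in 14. In 215 regions no library had an own peak of 1500 bp or more, in 362 at least 2 libraries did, and in 11 all 16 did. The median share of a wide region's width covered by peaks ran from 69.1% in diabetic baseline replicate 4 to 94.4% in control baseline replicate 3. Over 11622 pairs of a wide region and a library that called it there were on average 3.20 summits in 1.60 separate peaks, against 1.35 summits in other shared regions. Of these pairs, 2.83% had 1 summit, 22.3% had 2, 74.9% had 3 or more and 9.96% had 5 or more, up to 9. The share of all summits of a library that lay in the 727 regions ran from 2.99% to 4.86%.

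Summits recurred at the same places. Joining summits of all libraries at gaps of at most 50 bp gave 4320 positions, a median of 6 per region, of which 1269 were present in all 16 libraries and 1043 in 1. The median full position spanned 71 bp over the 16 libraries. There were 445 regions with 2 or more positions present in every library, 107 of them with 3 and 12 with 4. Neighbouring full positions were 604 bp apart at the median (576 spacings), with quartiles of 458 and 826 bp and a range of 216 to 1830 bp.

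The widest region spanned 3448 bp at chr9:124422523-124425970 by the predicted gene Gm20783, close to the distal end of the chromosome. It had 7.62 summits per library, 6 to 9 in IL-1β and 7 to 9 in baseline libraries, and an own peak of at least 1500 bp in all 16. The handling of reads that align to several places was not given in the sources, and its part in these values was not tested. The region at Csf2ra, the α chain of the receptor for GM-CSF, spanned 2924 bp at chr19:61225823-61228746 with 5.19 summits per library. Csf2ra had 4 to 6 summits in IL-1β and 3 to 9 in baseline libraries. The start of Arid1b, a subunit of the BAF chromatin remodelling complex, lay in 2853 bp at chr17:4993931-4996783. Arid1b had 6.69 summits per library, 5 to 8 after IL-1β and 6 to 9 at baseline. Its strongest position, at -685 bp from the start, had 52.9, 58.2 and 65.2 scaled reads (lowest, median and highest) after IL-1β and 52.4, 57.7 and 65.1 at baseline, so the groups overlapped nearly fully. The other Arid1b positions lay 868 and 1302 bp inside the gene. Here, scaled reads are the reads recovered at a summit after libraries were set to equal medians.

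The region at Tsc22d2, a TSC22 family member, spanned 2832 bp with 4.25 summits per library, and only 1 library had an own wide peak there. Rhob, a small GTPase of the cytoskeleton and endosomes, had 2580 bp at chr12:8497927-8500506. Rhob held 2.00 ± 0.926 summits (1 to 4) after IL-1β and 4.25 ± 1.58 (2 to 7) at baseline, with 1 position present in all 16 libraries (SD, n = 8 each). Its highest summit did not pass the test, its log2 change being -0.02 ± 0.09 (SE; limma adjusted p = 0.917). Stat6, the transcription factor of IL-4 signalling, had 6.19 summits per library in 2346 bp at chr10:127641826-127644171. Stat6 had 5.88 ± 0.641 summits after IL-1β and 6.50 ± 0.756 at baseline (SD, n = 8 each). The neutrophil granule gene Ngp had 5.53 per calling library in 2541 bp and was called in 15 libraries. Ngp had 4 to 8 summits in IL-1β libraries and 0 to 8 in baseline libraries. Rdh10, an enzyme of retinoic acid synthesis, had 5.50 per library in 2086 bp. Just inside the width limit lay Ero1a, Lcp1 and Ppp4r3a at 1500 bp with 2.56, 3.19 and 3.00 summits per library. Just outside lay Ppia, C9orf72 and Ppp4r1 at 1499 bp with 3.00, 2.94 and 3.25.

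Between libraries, no value per library passed adjustment over the 18 tests made. The number of wide regions that a library covered with an own peak of at least 1500 bp was 98.0 ± 46.8 after IL-1β and 192 ± 97.6 at baseline (SD, n = 8 each). The IL-1β libraries ran from 48 to 185 and the baseline libraries from 51 to 375, so the groups overlapped. The difference was -93.8 regions (two-sided exact permutation within phenotype, p = 0.0220; 0.244 after Benjamini-Hochberg adjustment over 18 tests). With the portions of a mouse paired, the two-sided exact sign-flip p was 0.0156, and 1 of 8 mice had the higher value after IL-1β. Summits per wide region were 3.10 ± 0.125 after IL-1β and 3.28 ± 0.234 at baseline, a difference of -0.18 (SD, n = 8 each; p = 0.0800 by exact permutation, 0.288 adjusted). Without diabetic baseline replicate 4 that difference was -0.25 (exact permutation p = 0.00490). The share of all summits in wide regions was 3.79% ± 0.565 and 3.40% ± 0.373 (SD, n = 8 each; exact permutation p = 0.142), and with equally long peak lists its difference turned to -0.0257 percentage points. Reads moved with these values. The median highest summit of a wide region had 82.8 ± 10.6 reads after IL-1β and 95.8 ± 12.7 at baseline (SD, n = 8 each; p = 0.0461 by exact permutation, 0.244 adjusted). Signal over background, from summits of regions shared by all libraries, was 29.3 ± 6.21 and 35.1 ± 5.80 (SD, n = 8 each; exact permutation p = 0.0535). Its part in the number of summits was not tested.

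**Figure D3:**
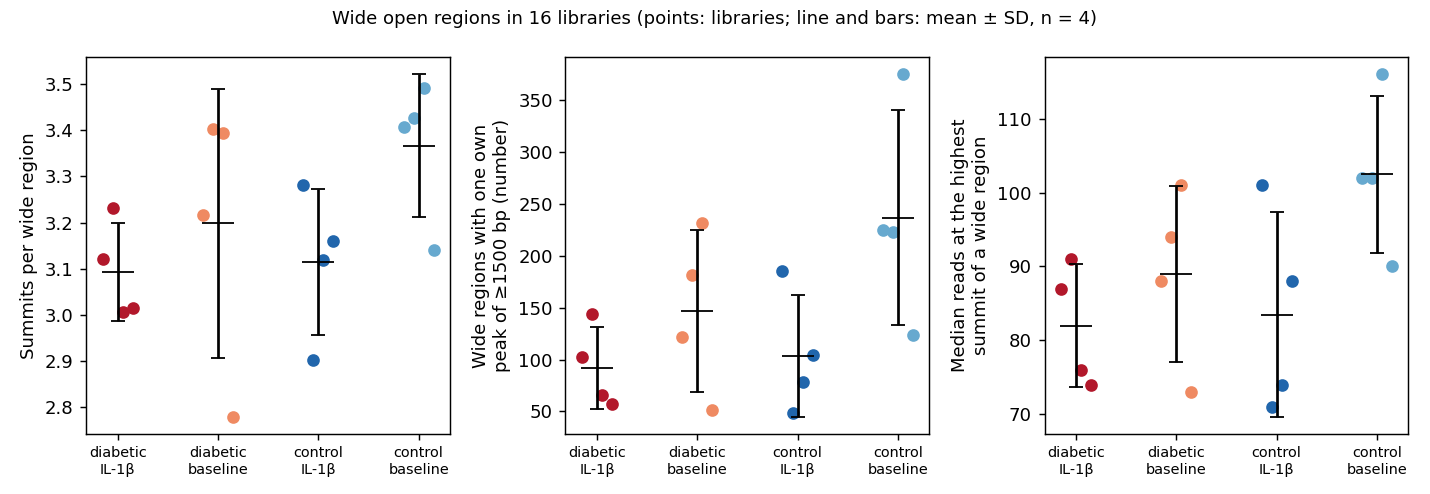
Summits per wide region, number of wide regions covered by an own peak of at least 1500 bp, and median reads at the highest summit of a wide region, for each of 16 libraries; lines and bars are mean ± SD of 4 libraries. In all 3 panels the groups overlap, and diabetic baseline replicate 4 has the lowest summit count, 2.78.

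Diabetic and control libraries did not differ in these values beyond their spread. At baseline diabetic libraries had 3.20 ± 0.292 and control libraries 3.37 ± 0.155 summits per wide region (SD, n = 4 each; p = 0.343 by exact permutation). The IL-1β libraries had 3.09 ± 0.106 and 3.12 ± 0.158 (SD, n = 4 each; exact permutation p = 0.857). The smallest p that 4 against 4 libraries allow is 0.0286.

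Libraries differed before any comparison. Peak lists held 37543 to 72525 peaks, with the fewest in control IL-1β replicate 2, and background was 0.856 to 1.71 reads per window, with the lowest in diabetic baseline replicate 4. Depth as total reads is unknown. Markers of cell types were looked up. Of 14 progenitor genes, 12, Kit, Cd34 and Flt3 among them, had a region at the gene's end in all 16 libraries, as did 6 of 7 granulocyte, 5 of 6 matched erythroid, 4 of 6 monocyte, 2 of 8 T cell, 2 of 6 B cell and 2 of 7 stromal genes. Pax5, which marks B cells, and Cdh5, Col1a2, Cxcl12 and Lepr of endothelium and stroma had none in any library. In bulk samples fewer cells of a type and less open chromatin per cell cannot be told apart, and the part of cell mixture in the results below was not tested.

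Whether the wide regions changed with IL-1β was asked first for each region's highest summit. Of 719 regions present in all libraries, 41 (5.70%) rose and 10 (1.39%) fell (limma, Benjamini-Hochberg adjusted p below 0.05 over all 24955 shared regions). Among all shared regions 6.42% rose and 3.4% fell, 9.82% in all. The median log2 change was 0.08 in the wide regions and 0.03 over all. Without diabetic baseline replicate 4, 162 wide regions rose and 13 fell. There were 25 rises without diabetic IL-1β replicate 3 or control IL-1β replicate 3, and 6, 6 and 5 falls without diabetic IL-1β replicate 2, control baseline replicate 2 and control baseline replicate 4. Scaled by background instead of by medians 1 rose and 36 fell. Rises were 80.4% of calls as reported, 2.70% by background and 58.8% by cyclic loess; a block for each mouse gave 66 rises. That scaling moved every summit position by -0.25 on the log2 scale, so that a rise is always one relative to the median position.

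By summit position, 49 of 1269 positions of wide regions in 41 regions rose and 26 in 26 regions fell. That is 3.86% and 2.05%, against 5.42% and 3.74% of all 25203 positions, 9.16% together (limma, adjusted p below 0.05). All 75 changed in the same direction in diabetic and control mice, with rises of 0.22 to 0.99 and falls of 0.26 to 0.69 on the log2 scale. They were called on the mean change of both phenotypes, which favours equal signs, so the agreement is not separate support. The IL-1β and baseline libraries did not overlap at 12 of the 49 and 5 of the 26. Positions between genes were called in 19.8% of 91 cases, against 13.7% of all 6411 positions in such regions. Those in regions that hold a gene end were called in 4.42% of 882 cases, against 3.55% of 9293. The shares were the other way round inside gene bodies, at 6.42% of 218 against 12.7% of 7824, and within 1 kb of a gene end, at 5.13% of 78 against 6.21% of 1675. None of these shares was tested. Scaled by background, all 26 falls and 3 of the 49 rises, both of Fnbp1 and that of Lasp1, stayed past the threshold, and 5 rises, those of Pnpla7, Pias3, Maz, Ube2g1 and Hmga1, had negative values; those 5 are named after their values were seen. Leaving out diabetic baseline replicate 4 gave 178 rises and 42 falls. There were 32 rises without diabetic IL-1β replicate 3, and 31 without replicate 3 of control IL-1β or of control baseline. A block for each mouse gave 88 and 47. Cyclic loess scaling gave 58 and 48, so that 54.7% of calls were rises, against 65.3% as reported and 3.41% when scaled by background.

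Of the 8 largest rises, that of Fnbp1 came first. Fnbp1 encodes an F-BAR protein that links membranes to actin. In the wide region inside it, at chr2:31060846-31062646, the position 31062431 had 56.6, 66.7 and 85.3 scaled reads after IL-1β and 26.7, 35.3 and 41.5 at baseline (lowest, median and highest of 8). Every IL-1β library was above every baseline library, and the log2 change was 0.99 ± 0.10 (SE; limma adjusted p = 1.13e-06). The other Fnbp1 position, 31061334, also rose, by 0.71 ± 0.15 (SE; adjusted p = 0.00330). Lasp1, an actin-binding scaffold, had a single full position at 97800212. Lasp1 averaged 63.6 ± 6.71 scaled reads after IL-1β and 38.9 ± 5.61 at baseline (SD, n = 8 each; log2 change 0.72 ± 0.10, SE; limma adjusted p = 3.95e-05), with no overlap.

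Klf9 is a Krüppel-like factor and a target of glucocorticoid receptors. Both positions of a region 4976 bp from the nearer boundary of the Klf9 gene body rose by 0.61 ± 0.10 and 0.57 ± 0.09 (SE, limma adjusted p = 0.000181 and 0.000128). Klf9 position 23135058 had 49.5, 69.9 and 76.3 scaled reads after IL-1β and 38.9, 41.4 and 50.4 at baseline, which overlapped in a single pair of values. Sh3kbp1, an adaptor of receptor endocytosis, rose by 0.77 ± 0.15 (SE; adjusted p = 0.00173) from few reads, 27.3 ± 5.54 after IL-1β and 16.2 ± 4.35 at baseline (SD, n = 8 each). Itgb2, the β2 integrin chain of leukocytes, rose by 0.54 ± 0.10 (SE; adjusted p = 0.000860). Its groups, 66.0 to 105.7 after IL-1β and 35.5 to 67.7 at baseline, overlapped narrowly. Gm39469, close to the end of chromosome 9, rose by 0.57 ± 0.16 (SE; adjusted p = 0.0254), and lost its call when any 1 of 4 libraries was left out (diabetic IL-1β 3, diabetic baseline 2, control IL-1β 2 or control baseline 1; adjusted p = 0.0581 to 0.0694).

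Among signalling genes, Ptpn22 is a phosphatase that restrains antigen receptor signalling. The start printed above lies inside the Ptpn22 gene body, and the summit at -59 bp from it had 52.2, 56.5 and 71.6 scaled reads after IL-1β and 31.6, 41.1 and 49.3 at baseline. The groups did not overlap, and the log2 change was 0.54 ± 0.10 (SE; limma adjusted p = 0.000547). The other Ptpn22 position, at -599 bp, changed by 0.26 ± 0.11 (SE; adjusted p = 0.163). Ifngr2 encodes the signalling chain of the interferon-γ receptor. Its summit at -43 bp from the start had 90.5, 101 and 122 scaled reads after IL-1β and 62.6, 68.7 and 86.3 at baseline. Again the groups did not overlap (log2 change 0.49 ± 0.08, SE; limma adjusted p = 0.000213). The Ifngr2 position at -443 bp rose as well, by 0.27 ± 0.08 (SE; adjusted p = 0.0247).

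Of the 8 largest falls, 6 lay away from the strongest summit of their region. That of Utf1 was the only full position of its region. In regions with several full positions, 4 of 21 fallen, 17 of 38 risen and 424 of 962 uncalled positions were the strongest. These shares were not tested, and strength was ranked with the IL-1β libraries included, which favours risen over fallen positions. Lmntd1 gives its name to a region 47671 bp from the nearer boundary of its gene body, at chr6:145339882-145341643. The Lmntd1 position 145340117 had 40.3, 41.9 and 55.0 scaled reads after IL-1β and 61.7, 72.4 and 90.4 at baseline, with no overlap. It fell by 0.69 ± 0.09 on the log2 scale (SE; limma adjusted p = 2.12e-05), lower after IL-1β in 8 of 8 mice. Arhgap5, which encodes a GTPase-activating protein, is the nearest gene of a region 30862 bp away. Its position 52603088 fell by 0.63 ± 0.11 (SE; adjusted p = 0.000660), with 21.3, 34.9 and 39.0 scaled reads after IL-1β and 40.7, 49.7 and 65.2 at baseline.

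Inside Scaf4, which acts in transcription termination, a position averaged 35.1 ± 4.80 scaled reads after IL-1β and 54.3 ± 5.80 at baseline (SD, n = 8 each; change -0.63 ± 0.10, SE; limma adjusted p = 0.000145). The Scaf4 groups did not overlap. Dyrk2, a kinase, Suco, Prkar1a, a regulatory subunit of protein kinase A, and Pde1a, a phosphodiesterase, fell by 0.53, 0.49, 0.47 and 0.46 (limma adjusted p = 0.00258, 0.00103, 0.00233 and 0.0164). Utf1, a chromatin factor of embryonic stem cells, is nearest to a position that averaged 19.0 ± 4.56 scaled reads after IL-1β and 25.9 ± 3.64 at baseline (SD, n = 8 each; adjusted p = 0.0494). Utf1 lost its call under 19 of 25 alternatives, most of the libraries left out among them (adjusted p = 0.0501 to 0.116).

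The comparison that the several summits allow is between positions of the same region, in which the scaling of a library cancels for the difference of changes, though not for the sign of either change. Each other full position at least 300 bp away was set against the strongest position of its region, giving 569 pairs in 442 wide regions. The strongest position is the one with the highest mean log2 reads over all 16 libraries, IL-1β libraries included. Both positions of a pair had the same sign of change in 365 of 569 pairs (64.1%). In 445 regions with several full positions, all changes were above 0 in 184, all were below 0 in 79 and signs were mixed in 182. These signs are relative to the median position and were not tested. Across pairs, the change of the other position in control mice correlated with that of the strongest position in diabetic mice by r = 0.44, and in the reverse pairing by r = 0.32. The same position in control and diabetic mice gave r = 0.61 (n = 569 pairs, which share libraries; a description with no test). The median absolute difference within a pair was 0.09 on the log2 scale, close to its standard error of 0.10.

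In 29 of 569 pairs (5.10%) in 25 regions the other position changed unlike the strongest (limma on the log2 difference, adjusted p below 0.05 over 2348 pairs), against 4.17% of all pairs tested. In 26 of the 29 the other position moved downward relative to the strongest and in 3 upward, against 2.9% downward and 1.28% upward of all pairs tested. Of all 569 pairs, 64.7% had a lower change at the other position, with a median difference of -0.04. All 29 had the same sign in both phenotypes, which calling them on the mean of both phenotypes favours. In 13 of them the other position fell by itself, and in 3 the strongest rose. A pair was 731 bp apart at the median, and 21 of the 29 other positions lay farther from a gene end than the strongest one, as did 398 of the 569 tested. Choosing the strongest position with the IL-1β libraries included favours a position that rises with IL-1β. Its neighbours then move downward relative to it, and the part of this in the 26 downward pairs was not tested. The strongest position also has more reads by construction. Among pairs in which the other position had at least 0.5 times its reads, 19 of 415 were called, 16 lower and 3 higher, a count chosen after the data were seen. A lower mean signal over background after IL-1β, with overlapping groups, stands beside this. Its part in the lower values of weaker positions was not tested. The count was 54 without diabetic baseline replicate 4 and 20 to 30 without each other library. With summits joined at gaps of at most 25 bp it was 11 of 291 pairs.

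**Figure D4:**
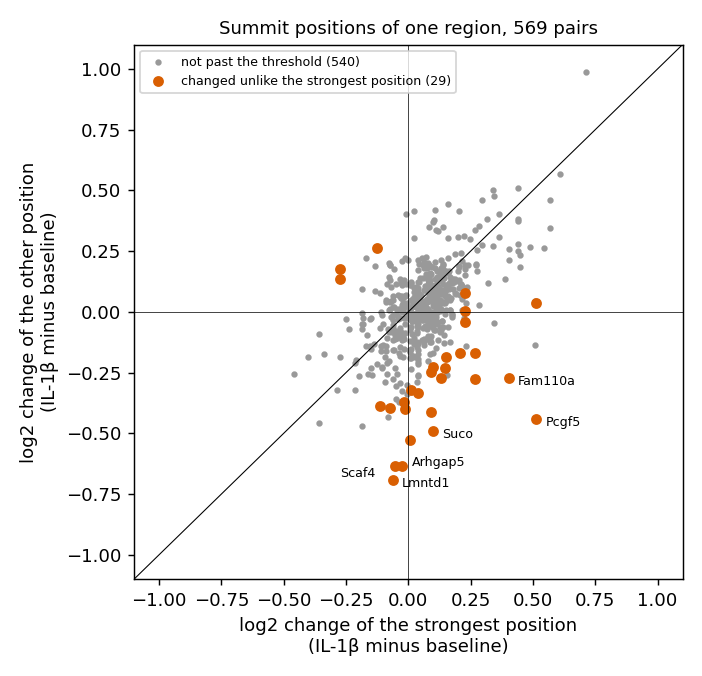
Log2 change with IL-1β (IL-1β minus baseline) of each other position against that of the strongest position of its region, for 569 pairs in 442 wide regions; the diagonal marks equal change. The 29 orange points changed unlike the strongest position, 26 of them below the diagonal.

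Pcgf5, a subunit of a Polycomb repressive complex, was the only region with both a risen and a fallen position when libraries were set to equal medians. It spans chr19:36348050-36349638 and has 3 full positions, at 41, 637 and 1083 bp inside the start printed above. The outermost, 1083 bp inside, had 43.9, 52.7 and 67.9 scaled reads after IL-1β and 28.6, 38.6 and 42.4 at baseline. It rose by 0.51 ± 0.10 (SE; limma adjusted p = 0.00141), with every IL-1β library above every baseline library. The middle Pcgf5 position, 446 bp from it, had 22.8, 27.5 and 31.7 scaled reads after IL-1β and 29.0, 38.1 and 45.5 at baseline. It fell by 0.44 ± 0.11 (SE, limma adjusted p = 0.00973). With libraries scaled by background, the outermost position changed by 0.26 (limma adjusted p = 0.252) and the middle one by -0.69 (limma adjusted p = 0.0123). At the start itself the values were 44.3 ± 3.56 and 43.2 ± 3.58 (SD, n = 8 each; change 0.04 ± 0.09, SE; adjusted p = 0.849). The outermost position averaged 54.0 ± 8.88 after IL-1β and 37.6 ± 4.65 at baseline (SD, n = 8 each). It was therefore the strongest of the region only through the IL-1β libraries. The Pcgf5 middle position differed in change from the outer one by -0.95 ± 0.13 (SE; limma adjusted p = 3.19e-06), by -1.03 in diabetic and -0.88 in control mice.

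At Suco, which encodes a SUN-domain protein with a role in bone formation, the strongest summit lay at -168 bp from the printed start. The printed start lies inside the Suco gene body, and the strongest summit was 13 bp from the boundary of that body. This summit had 129, 160 and 189 scaled reads after IL-1β and 123, 142 and 225 at baseline, with full overlap. The Suco summit 771 bp downstream of the printed start lay 926 bp from the boundary. It had 42.7, 52.5 and 70.9 after IL-1β and 63.7, 75.1 and 87.0 at baseline, a small overlap, and fell by 0.49 ± 0.09 (SE; limma adjusted p = 0.00103). The difference of changes was -0.59 ± 0.10 (SE; adjusted p = 0.000341). Another Suco position, at -560 bp, averaged 70.5 ± 10.2 after IL-1β and 72.4 ± 13.6 at baseline (SD, n = 8 each).

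Tra2b, a splicing regulator, and Nfya, a subunit of the factor that binds CCAAT, have a like layout. The Tra2b summit at -7 bp from the start averaged 111 ± 8.57 scaled reads after IL-1β and 111 ± 17.6 at baseline, while that 541 bp inside averaged 52.4 ± 7.13 and 65.2 ± 5.70 (SD, n = 8 each). The Tra2b difference of changes was -0.33 ± 0.09 (SE; limma adjusted p = 0.0295). At Nfya the summit 12 bp inside the start had 123, 145 and 156 scaled reads after IL-1β and 114, 130 and 176 at baseline, and that 728 bp inside had 75.4, 84.6 and 96.4 after IL-1β and 81.6, 100.1 and 109 at baseline. Their difference was -0.33 ± 0.06 (SE; limma adjusted p = 0.00153), though the Nfya position 728 bp inside did not pass alone (-0.23 ± 0.08, SE; adjusted p = 0.0692).

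The Lmntd1 region holds no annotated gene start. Its strongest position had 117, 138 and 155 scaled reads after IL-1β and 124, 134 and 210 at baseline, and the one 731 bp away fell as given above. Their difference was -0.63 ± 0.09 (SE; limma adjusted p = 3.69e-06). In the Arhgap5 region, 1760 bp separated the fallen position from a strongest one at 72.9 ± 6.17 scaled reads after IL-1β and 74.9 ± 13.7 at baseline (SD, n = 8 each; difference of changes -0.61 ± 0.12, SE; limma adjusted p = 0.00145). Fam110a, Scaf4, Bicral and Dyrk2 had differences of -0.68, -0.58, -0.54 and -0.53 (limma adjusted p = 0.000464, 0.00311, 0.00761 and 0.00249). In Bicral neither position passed alone, with changes of -0.28 and 0.27.

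**Figure D5:**
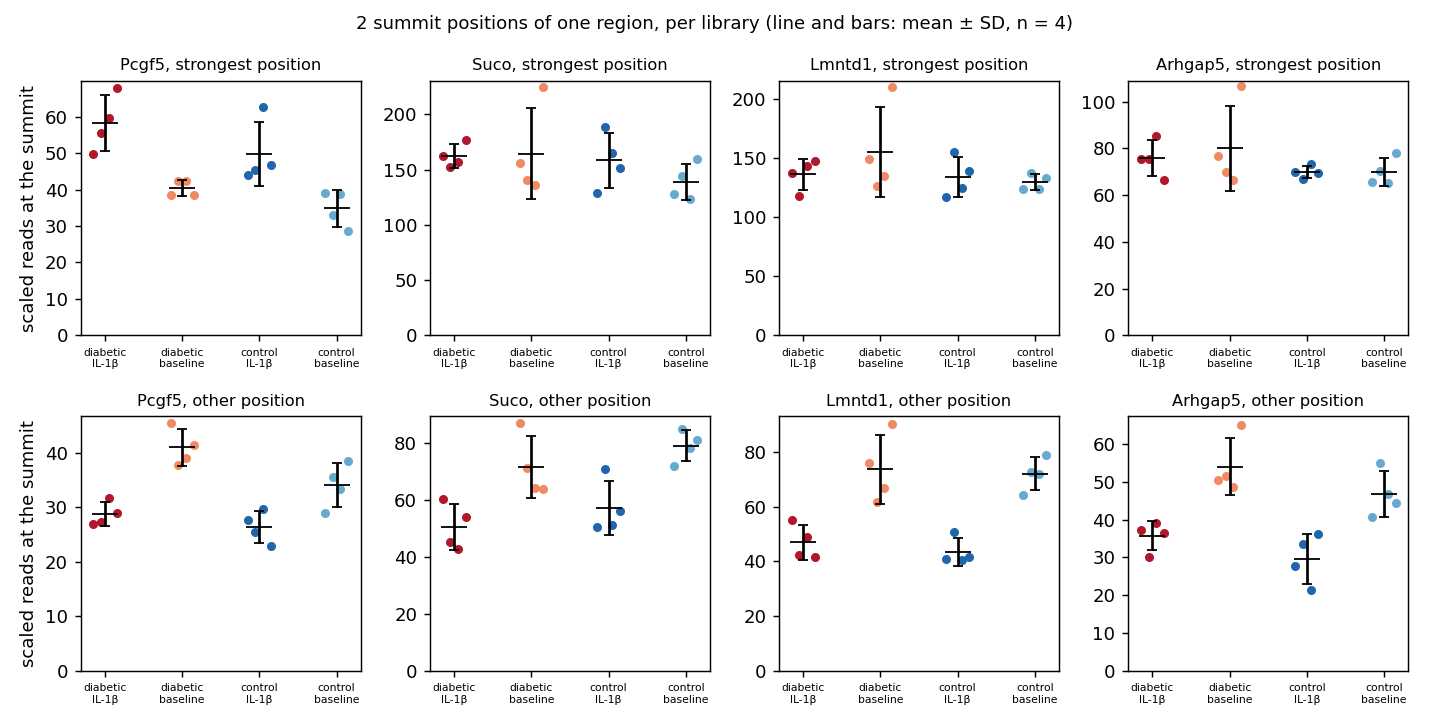
Scaled reads at the strongest position (upper row) and at the other position with the largest difference (lower row) of the wide regions at Pcgf5, Suco, Lmntd1 and Arhgap5, per library, with mean ± SD of 4 libraries. At Suco, Lmntd1 and Arhgap5 the upper values overlap between IL-1β and baseline while the means in the lower row are lower after IL-1β; at Pcgf5 the upper values are higher after IL-1β and the lower ones lower.

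Further uneven pairs lay at genes of chromatin and of early response. At Kmt2e, a Trithorax family protein, the strongest position changed by 0.23 ± 0.09 and 3 others by 0.08, 0.00 and -0.04 (SE for the first; differences of -0.15, -0.22 and -0.27, limma adjusted p = 0.0477, 0.0094 and 0.00764). At Ier2, an immediate early gene, a position 5 bp from the nearest boundary of a gene body fell by 0.37 ± 0.07 (SE, limma adjusted p = 0.00192). Ier2 averaged 72.1 ± 5.79 scaled reads there after IL-1β and 93.5 ± 10.5 at baseline (SD, n = 8 each), with no overlap, while the strongest position 1149 bp away changed by -0.02 ± 0.08 (SE). Hmgb2, a chromatin protein of dividing cells, had a difference of -0.38 (adjusted p = 0.00948). The 3 pairs with the opposite sign lay at Glipr1, near Klf6 and at the histone gene H4c11, with differences of 0.39, 0.41 and 0.45 (limma adjusted p = 0.0142, 0.00948 and 0.0343).

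A few positions changed in being called at all. In at least 7 of 8 IL-1β and at most 1 of 8 baseline libraries a summit was called at 5 of 4320 positions of wide regions, against 0.189% of all 143346 positions. These lay at Lrrc8d, Msl1, Ralgds and, with a pair of positions, at S100a8, the calprotectin gene of neutrophils. The reverse held for 10, against 0.299% of all. Among them were positions at Per2, a circadian repressor, Tnfrsf1a, a TNF receptor, Casp4, Adgre5, Ptpn12, Srgap2, Tasor2, Tor3a and Tra2b. The Per2 position was called in 0 of 8 IL-1β and 8 of 8 baseline libraries. A call depends on signal over background, which averaged 29.3 ± 6.21 after IL-1β and 35.1 ± 5.80 at baseline (SD, n = 8 each). The groups overlapped, and the difference did not pass (exact permutation p = 0.0535, 0.244 adjusted). Its part in these calls was not tested.

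Genes of 10 lists were looked up within 10 kb of a wide region, which 975 of 21887 protein-coding genes (4.45%) had. Immediate early genes, transcribed within minutes of a stimulus, had 10 of 27: Jun, Junb, Jund and Fosl2 of AP-1, Atf3, the phosphatase gene Dusp1, Ier2, Ier5, Btg1 and Btg2. Of their 14 full positions, 0 rose and 1, that of Ier2, fell, with a median log2 change of -0.01. Junb changed by 0.07 ± 0.07 (SE; limma adjusted p = 0.644). Chromatin regulators had 9 of 33, Arid1b, Setd7, Kmt2c, Kmt2d, Dnmt3a, Ezh2, Kdm6a, Ep300 and Chd4, with 0 of 19 positions called and a median of 0.04. Stem and progenitor transcription factors had 5 of 26 (Runx1, Lmo2, Cbfb, Hhex and Nfe2) and 0 of 7 positions called, with a median of 0.11.

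Growth factor and cytokine receptors had 4 of 24, Csf2ra, Ifngr2, Tnfrsf1a and Cxcr4, and 2 of 7 positions rose, both of Ifngr2 (median 0.06). NF-κB subunits and feedback genes had 3 of 22. Of their 7 positions 1 fell, at Irak3, the inhibitory kinase-like protein of IL-1 receptor signalling (median -0.06). Irak3 averaged 63.5 ± 5.30 scaled reads after IL-1β and 80.3 ± 6.67 at baseline, a change of -0.34 ± 0.07 (SD, n = 8 each; SE; limma adjusted p = 0.00391). The region within 10 kb of Irak2, which carries the IL-1 signal onward, is nearest to Tatdn2 and changed by 0.26 ± 0.09 at its strongest position (SE; adjusted p = 0.0673). That within 10 kb of Nfkbie, an inhibitor of NF-κB, is nearest to Hsp90ab1, counts also among the heat shock genes, and changed by -0.06 ± 0.08 (SE; adjusted p = 0.699). The regions counted for Kmt2d, Chd4 and Nfe2, and 1 of those counted for Irak3, also lie nearest to another gene.

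Neutrophil genes had 3 of 21, Ngp, S100a8 and S100a9, with 1 full position, which rose: S100a9 averaged 70.9 ± 14.6 scaled reads after IL-1β and 53.0 ± 16.2 at baseline (SD, n = 8 each; log2 change 0.46 ± 0.13, SE; limma adjusted p = 0.0277), with overlap. Myeloid transcription factors had 3 of 22, Cebpb, Cebpd and Klf2, and 0 of 3 positions called (median -0.02). Glycolysis and glucose transport genes had 2 of 19, Slc2a3 and Gapdh, with 0 of 5 positions called (median 0.05). Cell cycle genes had 1 of 20, Cdkn2c, and heat shock genes 1 of 20, Hsp90ab1, with 0 of 1 and 0 of 3 positions called (medians 0.05 and -0.05). Over all positions the median was 0.01.

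Diabetic and control cells were compared at the same positions, asking whether diabetes altered the wide regions before or after the stimulus. At baseline 0 of 1269 positions of wide regions differed (limma adjusted p below 0.05; 0% of all 25203; smallest adjusted p = 0.433), with 110 higher and 20 lower in diabetic cells at an unadjusted p under 0.05. Over all 25203 positions, 1749 were higher and 1142 lower at that unadjusted threshold. The median log2 difference, diabetic minus control, was 0.12 in the positions of wide regions and 0.07 over all. After IL-1β 0 differed as well, with 22 higher and 11 lower at an unadjusted p under 0.05 and a median of 0.03. Over all positions 649 were higher and 406 lower. At 0 positions did the response to IL-1β differ between phenotypes, with 5 and 12 at an unadjusted p under 0.05, against 211 and 213 over all. Within regions 0 of 569 pairs changed unlike each other between diabetic and control cells at baseline (9 higher and 35 lower unadjusted) or after IL-1β (15 and 19). Over all 2348 pairs the unadjusted counts were 39 higher and 119 lower at baseline, and 51 and 55 after IL-1β. These counts do not show that the phenotypes were alike.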

How the data were processed

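The deposited files are 16 peak lists, 1 per library. The submitters' processing notes name build mm10, MACS2 2.1.1, Bowtie2 2.2.6, Trim Galore 1.8, FastQC 0.11.3, edgeR and DiffBind 2.4.8, without a role or an order. Read shifting for Tn5 and the treatment of duplicates and of reads with several alignments are not given in the sources used here. Each line of a deposited list gives a summit with the authors' score, their fold ratio over background, −log10 p and −log10 q. A peak with several summits stands on several lines.

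In MACS2 lists the fold equals (n + 1) / (λ + 1) and p is Poisson, so reads n and background λ were recovered with a tolerance of 0.001 in −log10 p (99.9987% to 100% of summits). Peaks that overlapped or touched were merged. Summits of a region were joined into positions at gaps of at most 50 bp, keeping the highest per library. Log2 reads at positions or regions present in all 16 libraries were set to equal library medians; limma 3.58.1 (R 4.3.3) then fitted 4 group means with a trended variance, and p-values were adjusted by Benjamini-Hochberg over all features, at 0.05. Positions missing in any library, all but 1269 of 4320 in wide regions, were not fitted. Pairs of positions were fitted as log2 differences. Values per library were tested with exact permutations within phenotype (4900 assignments, smallest p 0.000408), enumerated in Python 3.11.15 with NumPy 2.4.6. SciPy 1.17.1 was used in the recovery of reads. Genes, promoters and their strands are RefSeq's (GRCm38.p6, with mm10 coordinates on main chromosomes). Positions are 1-based. The fits were tested on simulated data.

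Regions take the name of the nearest protein-coding gene. Named are the 6 widest, the 6 with most summits, 3 on either side of the width limit, the 8 largest rises, falls and uneven pairs, and list members; other named positions were chosen after their values were seen. The regions and lists were chosen with earlier results of these data known. Some items that the rule names are not reported here. Alternatives were other scalings, filters, gaps and distances, the mouse as a block, and each library left out. Both portions of a mouse come from a single split sample, as the series' design states, and so share a replicate number. Their deviations from the group means correlated by 0.43, 0.27, -0.12 and 0.35 in diabetic and by 0.16, 0.15, -0.06 and 0.03 in control mice. Each mouse sample gives 1 library per state, and p-values measure the spread between these samples.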

Additional observations from a re-analysis of the deposited data

Results flagged for a closer look

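In 8 of 212 groups of 4 libraries checked, 1 library lay far from the other 3; chance gives about 1 in 20. After IL-1β in diabetic mice, replicate 3 had 29.3 scaled reads at the fallen Prkar1a position (35.2 to 35.8 in the others), and replicate 2 had 66.0 at the risen Itgb2 position (78.8 to 80.4). In diabetic baseline libraries, replicate 4 had 100.7 at the upstream Suco position (64.7 to 69.1). After IL-1β in control mice, replicate 2 had 50.8 at the fallen Lmntd1 position (40.3 to 41.5) and 61.5 at Gm39469 (34.2 to 36.7), and replicate 3 had 62.8 at the risen Pcgf5 position (43.9 to 46.7). In control baseline libraries, replicate 4 had 37.5 at the upstream Ptpn22 position (43.8 to 44.9), and replicate 2 had 51.6 at the Arid1b position 868 bp inside the gene (40.7 to 41.5).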

How the results depend on the processing

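The wide regions numbered 2525 at a minimum width of 1200 bp, 71 at 2000 bp and 362 where at least 2 libraries needed an own peak of 1500 bp. The difference in the share of summits turned to -0.0257 percentage points (exact permutation p = 0.780) with equal numbers of peaks. That in summits per region was -0.22 (exact permutation p = 0.00653) without control IL-1β replicate 2 and diabetic baseline replicate 4. Scaled by background, 1 region rose and 36 fell, 3 positions rose and 85 fell, and 1 position differed between diabetic and control at baseline. Cyclic loess gave 28 fallen regions and 48 fallen positions. At least 12 libraries gave 44 fallen positions and 56 uneven pairs. The mouse as a replicate block gave 66 risen regions, 88 risen and 47 fallen positions and changed no other count by over 1.5 times. Without diabetic mouse 4 there were 107 risen regions, 110 risen positions and 44 uneven pairs. Without control IL-1β 2 and diabetic baseline 4, a choice made after seeing the data, there were 102 risen regions, 112 risen and 43 fallen positions and 45 uneven pairs. Gaps of 100 bp gave 75 risen positions, gaps of 25 bp gave 11 uneven pairs, and the filter on relative strength 19.

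With each library left out in turn, 25 to 162 regions rose, 5 to 13 fell, 31 to 178 positions rose, 21 to 42 fell and 20 to 54 pairs were uneven. Summits per region differed by -0.25 to -0.15 and the share by 0.23 to 0.49 percentage points. The counts between diabetic and control stayed at 0 with each library left out. The highest counts came without diabetic baseline replicate 4; the cause was not tested. Of 599 values of 24 named positions and pairs under alternatives, 570 kept direction and call, 29 lost the call and 0 reversed. Reads of about 10 to 200 per summit limit what can be called, and positions missing in a library were not tested.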

Other observations

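Of the 727 wide open regions, 3 held an annotated miRNA hairpin: Mir707 in the region at Akt1s1, Mir7238 at Ankrd10 and Mir5130 at Kctd12. Of the 719 called in all libraries, 302 were among the top 10% of shared regions with the most reads, a mean highest summit of at least 98.4 reads.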
